A study of Homo sapiens with 4 samples.

Results

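Interferon-stimulated genes were examined in HGC27, a human gastric cancer cell line, as a set of 40 genes chosen by gene symbol from a written list. All 40 symbols were found among the 25559 gene symbols of the count tables. RNA-seq libraries had been made from 2 samples of control cells (genotype wildtype, abbreviated wt in the sample titles) and from 2 samples of RUNX3 KO cells, in which a lentiviral vector carrying Cas9 and a guide RNA against RUNX3 had been introduced, followed by puromycin selection and single-cell cloning. No other genotype, treatment or time point was part of the comparison, and neither interferon nor a virus other than the vector is named for any group. The number of RUNX3 KO clones behind the libraries, whether the control cells had been through the vector, selection or cloning, and whether replicates were separate cultures are not stated in the sources used here, so an effect of RUNX3 and a difference between clones cannot be told apart, and the p-values measure only the spread between these libraries, which may be technical.

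Type I and type III interferons are secreted when a cell senses foreign nucleic acid. They bind receptors whose JAK kinases phosphorylate STAT proteins, and STAT2 assembles with IRF9 into the factor ISGF3, which binds the interferon-stimulated response element (ISRE) in the promoters of many genes that interferon induces. The products of these genes sense viral RNA, degrade it, block its translation, trap virus particles at membranes, or feed back on the pathway, and many carcinoma lines transcribe some of them at a basal level without added interferon.

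The paper reports that an immunoblot showed no RUNX3 protein in RUNX3 KO cells, whereas only RNA is read here. RUNX3, the targeted transcription factor, gave 351 and 308 counts in control and 225 and 185 in RUNX3 KO replicates. This was a difference of -0.70 on the log2 scale (SE 0.0961, adjusted p = 1.43e-09), so that reads from the locus remained in RUNX3 KO cells at a lower level. Without RUNX3 KO replicate 2 the difference was -0.55 and no longer passed (adjusted p = 0.0649). Throughout, adjusted p is the Benjamini-Hochberg value of edgeR's quasi-likelihood test over 12967 tested genes. Between 11731401 and 12110876 reads per library fell on genes, a depth at which 3 counts correspond to between 0.248 and 0.256 CPM (counts scaled to library size). The epithelial markers of the line were sparse, with 35 and 33 counts over 5 genes in control and 104 and 127 in RUNX3 KO. KRT8, a keratin of simple epithelia, had 19 and 11 counts in control and 72 and 81 in RUNX3 KO (adjusted p = 1.90e-13 in edgeR's test), CDH1, which encodes E-cadherin, 15 and 21 against 30 and 32 (adjusted p = 0.0238), and KRT18 0 and 0 against 2 and 14, so that both epithelial markers that could be tested were higher in RUNX3 KO. EPCAM had 1, 1, 0 and 0 counts and KRT19 none, and the 5 gastric mucosa markers had 1 count in all 4 libraries together, so these defining markers of gastric epithelium were near 0. Leukocyte markers, a check for other cells, summed to 15 and 23 counts in control and 12 and 8 in RUNX3 KO over 6 genes with CD3E and CD74 at 0, and 3 markers of plasmacytoid dendritic cells were at 0 in every library. The part of these marker differences in the results below was not tested.

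A RefSeq promoter, 250 bases before to 50 bases after the annotated start on GRCh38.p14, was matched by symbol for 32 of the 40 genes. The ISRE letters GAAANNGAAA, searched on both strands, were present in a promoter of 23 of them (71.9%), against 4.38% of 27305 genes with a promoter of the same length. By response the letters were found in 3 of 5 genes that were lower in RUNX3 KO cells, 8 of 9 that were higher, 6 of 10 that were not called and 6 of 8 that were too low to test. The letters TGNGGT, a loose form of a RUNX motif with any base at N, were also searched on both strands. They were found in 12 of the 32 (37.5%) against 48.18% of all genes. Among those lower in RUNX3 KO cells 4 of 5 held them and among those higher 2 of 9. Of these called genes, only STAT2 (TGTGGT) and IFITM1 (ACCACA, on the opposite strand) had a match with T or C at N. The others had only A or G there, so these shares hold for the loose letters alone. No RUNX match shared a base with an ISRE match in these promoters. A match of letters is a description and not evidence of binding.

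The promoters of 5 called genes are shown because each holds the ISRE letters while the genes changed in opposite directions, 3 lower (IFITM1, IFITM3 and BST2) and 2 higher (OAS3 and PARP9). No entry was matched for IFITM2. Capitals mark each ISRE match, and each sequence is written 5′ to 3′ on the strand of its gene.
IFITM1 (chr11:313790-314089, plus strand): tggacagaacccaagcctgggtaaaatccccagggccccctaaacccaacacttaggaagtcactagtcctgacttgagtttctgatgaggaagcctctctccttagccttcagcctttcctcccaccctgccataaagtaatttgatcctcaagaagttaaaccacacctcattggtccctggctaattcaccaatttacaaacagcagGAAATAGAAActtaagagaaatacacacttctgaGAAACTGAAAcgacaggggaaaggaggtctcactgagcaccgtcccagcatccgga
IFITM3 (chr11:320811-321110, minus strand): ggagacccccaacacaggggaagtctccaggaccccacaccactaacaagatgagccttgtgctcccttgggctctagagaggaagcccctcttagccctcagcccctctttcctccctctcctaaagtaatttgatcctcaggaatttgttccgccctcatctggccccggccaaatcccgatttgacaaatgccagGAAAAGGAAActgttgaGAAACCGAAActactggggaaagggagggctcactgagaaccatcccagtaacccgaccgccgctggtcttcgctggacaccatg
BST2 (chr19:17405581-17405880, minus strand): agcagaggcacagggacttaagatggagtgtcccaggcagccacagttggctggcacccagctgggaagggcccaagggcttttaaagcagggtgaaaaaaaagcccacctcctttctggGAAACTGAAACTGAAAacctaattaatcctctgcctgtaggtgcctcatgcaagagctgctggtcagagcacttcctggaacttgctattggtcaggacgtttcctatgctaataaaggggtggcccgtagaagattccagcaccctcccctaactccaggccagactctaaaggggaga
OAS3 (chr12:112938224-112938523, plus strand): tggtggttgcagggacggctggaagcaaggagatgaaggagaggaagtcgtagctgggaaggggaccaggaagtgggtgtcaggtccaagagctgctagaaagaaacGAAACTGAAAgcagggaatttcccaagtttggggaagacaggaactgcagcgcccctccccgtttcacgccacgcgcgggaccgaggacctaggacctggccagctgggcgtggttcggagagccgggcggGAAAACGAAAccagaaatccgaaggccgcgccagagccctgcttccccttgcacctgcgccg
PARP9 (chr3:122564251-122564550, minus strand): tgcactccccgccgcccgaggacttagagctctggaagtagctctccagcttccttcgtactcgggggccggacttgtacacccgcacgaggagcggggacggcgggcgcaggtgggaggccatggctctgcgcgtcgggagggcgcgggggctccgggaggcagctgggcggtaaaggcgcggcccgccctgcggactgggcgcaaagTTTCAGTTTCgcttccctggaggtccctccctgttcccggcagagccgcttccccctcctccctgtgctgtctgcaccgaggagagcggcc
In IFITM1 the matches began 40 and 6 bases before the start, and matches of the loose RUNX letters on the opposite strand (ACCACA and ACCTCA) began 88 and 83 bases before it. In IFITM3 ISRE matches began 52 and 35 bases before the start, with a match of the loose RUNX letters (ACCCCA) at 219. BST2 held overlapping ISRE matches at 130 and 124 bases before its start, and OAS3 held matches at 143 and 12. The PARP9 promoter shown is the second of 2 RefSeq entries and held a match on the opposite strand at 41 bases before its start. BST2, OAS3 and this PARP9 promoter held no RUNX letters in the window.

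Of the 40 genes, 27 had enough counts to test, and RUNX3 KO cells differed from control cells in 15 of them at an adjusted p under 0.05, 6 lower and 9 higher. The share called was 55.6%, beside 48.9% of all tested genes, with 22.2% lower beside 24.4% and 33.3% higher beside 24.5%. Without RUNX3 KO replicate 1 the test called 3 lower and 2 higher, without RUNX3 KO replicate 2 it called 3 lower and 3 higher, and DESeq2 on all libraries called 5 higher. The number lower with DESeq2 was 4, where 28.5% of all tested genes were called in either direction. The median log2 fold change of the 27 was -0.02, beside -0.0021 over all tested genes, so the set had no common direction. The median size of the change, without sign, was 0.31 on the log2 scale beside 0.19 over all tested genes. By edgeR and by DESeq2 alike, 0 were lower by at least 2-fold at an unadjusted p of at most 0.05, beside 4.01% of all tested genes, and by edgeR 2 were higher by that much, OAS3 and PARP9, beside 2.11%. Without control replicate 1 the log2 fold change of PARP9 was 0.85, below that limit. Groups of libraries did not overlap in CPM for 21 of the 27, 9 lower and 12 higher, beside 72.7% of tested genes in either direction, 36.4% lower and 36.3% higher.

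**Figure D1:**
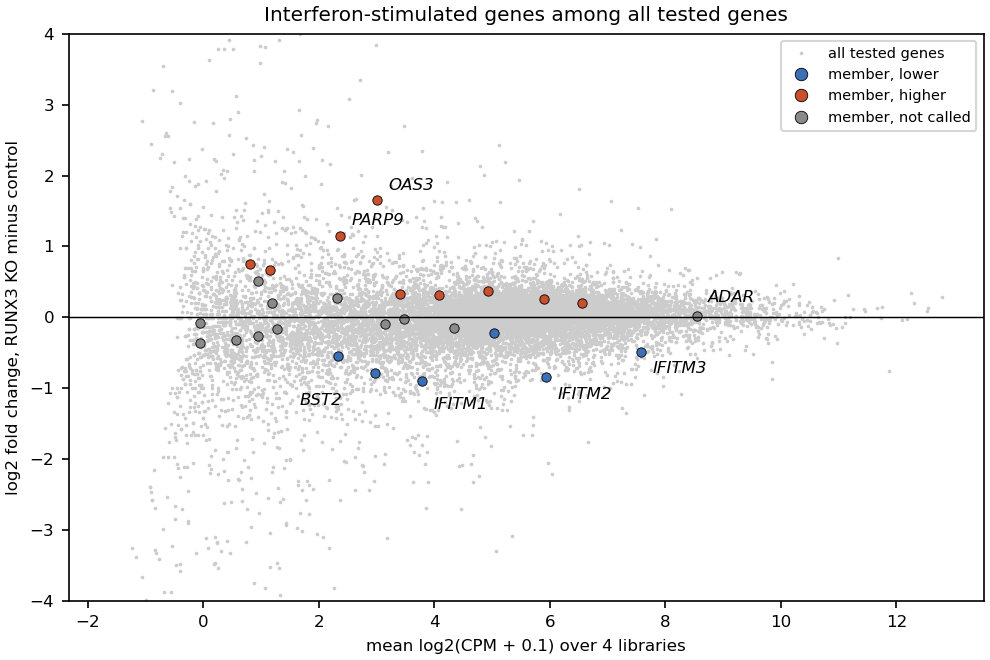
Log2 fold change (RUNX3 KO minus control) against mean log2(CPM + 0.1) over 4 libraries for all tested genes (grey points) and the 27 tested interferon-stimulated genes (outlined circles, blue lower and red higher at an adjusted p under 0.05, dark grey not called); 69 genes beyond a log2 fold change of 4 in either direction are not drawn. The members lie on both sides of 0 and within the range of other genes, with OAS3 at 1.65 the highest and IFITM1 at -0.90 the lowest of the 27.

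Most of the reads came from a few members. ADAR took 38.0% of all counts on the 40 genes, IFITM3 19.8%, EIF2AK2 9.62%, IFITM2 6.53% and IFI44L 6.08%, which together made 80.1%. Summed over the 40 genes, the level was 1018 and 1008 CPM in control and 955 and 941 CPM in RUNX3 KO cells. At the other end 10 genes had no more than 3 counts in any library, and of these MX2, OAS2, IFIH1 and RSAD2, which include the RNA sensor MDA5 (IFIH1) and the radical enzyme viperin (RSAD2), had none in all 4. In such bulk samples fewer cells that transcribe a gene and less RNA per cell cannot be told apart.

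**Figure D2:**
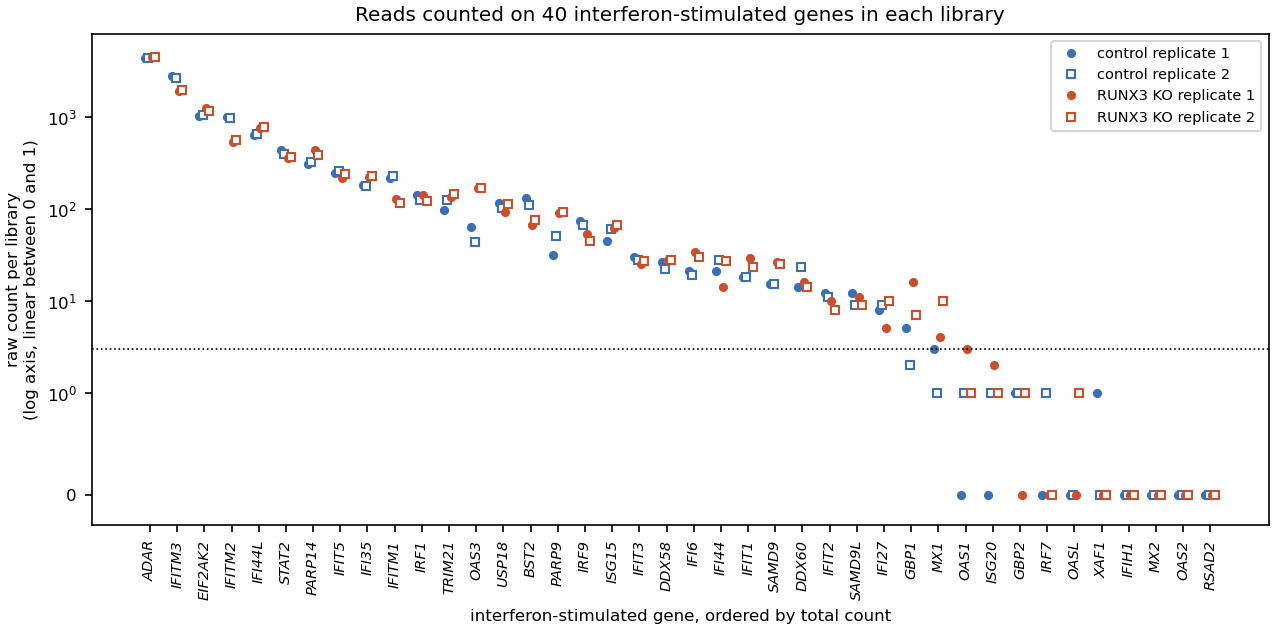
Raw count in each library (vertical axis, logarithmic above 1 and linear between 0 and 1) of the 40 interferon-stimulated genes, ordered by total count, with control in blue, RUNX3 KO in red, replicate 1 as filled circles and replicate 2 as open squares. The dotted line marks 3 counts, and levels span from 4369 to 4467 counts for ADAR to none in any library for 4 genes.

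Of 3 tested transcription factors that answer interferon, 2 were lower in RUNX3 KO cells, beside 24.4% of all tested genes, and 1 was not called. STAT2, a subunit of ISGF3, had 440 and 391 counts in control and 357 and 364 in RUNX3 KO libraries, 35.2 ± 2.93 against 30.3 ± 0.0215 CPM (SD, n = 2 each). The log2 fold change of STAT2 was -0.22 (SE 0.0778, adjusted p = 0.0151 in edgeR's test). IRF9, the DNA-binding subunit of ISGF3, had 74 and 67 counts in control and 53 and 44 in RUNX3 KO, with a fitted difference of -0.55 on the log2 scale (SE 0.192, adjusted p = 0.0124). For both genes every RUNX3 KO library was below every control library, as for 36.4% of all tested genes. The genes around IRF9 on chromosome 14 were lower too, with 39 of its 40 nearest tested genes below 0, a median of -0.40 and 14 of them at least as far from 0 as IRF9. The part of this neighbourhood in the value of IRF9 was not tested, and 23.9% of its exon bases are shared with another annotated gene on the same strand, whose reads could be counted with it. IRF1, a factor that also answers interferon gamma, had a log2 fold change of -0.02 (95% confidence interval -0.28 to 0.24). IRF7, which amplifies type I interferon production, had 1 count in control replicate 2 and none elsewhere. With DESeq2 the calls of STAT2 (adjusted p = 0.213) and IRF9 (adjusted p = 0.208) were lost, and they were also lost without control replicate 1 (adjusted p = 0.283, at a log2 fold change of -0.13, for STAT2 and 0.0970 for IRF9) or without either RUNX3 KO replicate (0.220 and 0.227 for STAT2, 0.0673 and 0.163 for IRF9) in edgeR's test, as well as without a filter on low counts (0.0950 and 0.0531).

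Cytoplasmic RNA sensors were barely transcribed. DDX58, which encodes RIG-I, had a log2 fold change of 0.21 (95% confidence interval -0.35 to 0.76) from 2.03 ± 0.239 CPM in control to 2.35 ± 0.0306 CPM in RUNX3 KO (SD, n = 2 each). Its neighbourhood on chromosome 9 had a median of 0.26, and 43.2% of its exon bases are shared with another gene annotated on its strand. DDX60, a helicase that assists RIG-I, had a log2 fold change of -0.31 with an SE of 0.348. Neither gene passed the test, and IFIH1 had no read, for which 3 counts, about 0.25 CPM, is the level that a count of 0 still allows.

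Among effectors activated by double-stranded RNA, OAS3 had the largest log2 fold change of the 27 tested members. OAS3 synthesizes 2′-5′ oligoadenylates, second messengers that lead to decay of RNA, and it lies on chromosome 12 at chr12:113375856-113414265 on GRCh37. It had 63 and 43 counts in control and 166 and 170 in RUNX3 KO libraries, or 4.49 ± 1.20 against 14.1 ± 0.0538 CPM (SD, n = 2 each). The RUNX3 KO libraries were close together and well above both control libraries. The level of OAS3 was 3.14-fold higher, 1.65 on the log2 scale (SE 0.154, adjusted p = 2.69e-16 in edgeR's test). The median of its 40 nearest tested genes was 0.07 on the same scale, and none of them was as far from 0 as OAS3. The adjoining family members OAS1 and OAS2 were nearly silent. OAS1 had 0 and 1 counts in control and 3 and 1 in RUNX3 KO, OAS2 none, and the related OASL 1 count, in RUNX3 KO replicate 2.

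EIF2AK2, the kinase PKR that halts translation, had 1025 and 1049 counts in control and 1238 and 1161 in RUNX3 KO libraries. The kinase gene rose by 0.20 on the log2 scale (SE 0.0475, adjusted p = 2.90e-04), without overlap between the groups, as for 36.3% of all tested genes in that direction. Of the 40 tested genes nearest to EIF2AK2, with a median of 0.07, 10 rose at least as much, and the part of this neighbourhood in the value was not tested. Without RUNX3 KO replicate 1 the call was lost at a log2 fold change of 0.14 (adjusted p = 0.103 in edgeR's test). ADAR, which edits adenosine in double-stranded RNA and is the most transcribed member by count, had 4369 and 4384 counts in control and 4467 and 4462 in RUNX3 KO. These groups overlapped after scaling, and the log2 fold change was 0.02 with a 95% confidence interval of -0.04 to 0.07, the narrowest among the 27.

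The IFIT family, whose products bind viral RNA and block its translation, showed no called change. IFIT1, IFIT2, IFIT3 and IFIT5 lie close together on chromosome 10, in a neighbourhood with a median log2 fold change of 0.03. IFIT1 had a log2 fold change of 0.51 (95% confidence interval -0.09 to 1.12, adjusted p = 0.159) on 18 and 18 against 29 and 23 counts. The others leaned the other way, with -0.36 for IFIT2, -0.17 for IFIT3 and -0.15 for IFIT5. IFIT5 was the most transcribed, at 21.3 ± 0.665 CPM in control and 19.2 ± 1.23 CPM in RUNX3 KO (SD, n = 2 each), with a confidence interval of the log2 fold change from -0.34 to 0.04. In all 4 genes the libraries of the 2 groups did not overlap, as in 72.7% of all tested genes, and 0 passed the test of edgeR, DESeq2 or, unadjusted, a p of 0.05.

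Genes for membrane restriction factors fell, 4 of 4, beside 24.4% of all tested genes called lower. IFITM1, IFITM2 and IFITM3 encode small membrane proteins that hinder fusion of virus with the cell, and they lie side by side on chromosome 11 between positions 303655 and 329475 on GRCh37. IFITM1 had 216 and 228 counts in control libraries and 126 and 114 in RUNX3 KO libraries, or 18.8 ± 0.724 against 10.1 ± 0.844 CPM (SD, n = 2 each). IFITM2 had 986 and 958 counts in control and 526 and 565 in RUNX3 KO, or 82.3 ± 1.65 against 45.8 ± 1.72 CPM. IFITM3 had 2742 and 2613 counts in control and 1900 and 1963 in RUNX3 KO, or 227 ± 7.66 against 162 ± 1.63 CPM. In each gene both RUNX3 KO libraries were below both control libraries by more than the spread within either group. The log2 fold change of IFITM1 was -0.90 (SE 0.116, adjusted p = 1.51e-10), a level 1.87-fold higher in control. For IFITM2 it was -0.85 (SE 0.0568, adjusted p = 6.05e-24), or 1.80-fold. For IFITM3 it was -0.48 (SE 0.0353, adjusted p = 7.87e-22), or 1.40-fold. Their 95% confidence intervals ran from -1.13 to -0.67, from -0.96 to -0.73 and from -0.55 to -0.41, so that the interval of IFITM3 shared no value with those of its neighbours. The medians of the genes around IFITM1, IFITM2 and IFITM3 were 0.04, 0.05 and 0.03.

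On a scale per transcript length, IFITM3 was the most abundant of the 40 genes, at 371 RPKM (CPM per kilobase of its canonical transcript) in control and 265 in RUNX3 KO cells. IFITM2 followed at 81.9 and 45.5 RPKM, and ADAR stood at 56.1 and 56.7 RPKM. ADAR was thus below IFITM2 in control and above it in RUNX3 KO cells on this scale of levels. The 3 IFITM genes are closely similar paralogs, and how the authors' counting divided reads between them is not given in the sources used here. In addition 21.1% of the exon bases of IFITM1 lie in another gene of the same strand, and 16.3% of those of IFITM3 in genes of the opposite strand.

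BST2 encodes tetherin, which holds budding virus particles on the cell surface, and lies on chromosome 19. It had 130 and 111 counts in control and 66 and 75 in RUNX3 KO libraries, or 10.2 ± 1.14 against 5.92 ± 0.457 CPM (SD, n = 2 each), again without overlap, as for 36.4% of all tested genes in that direction. BST2 fell by 0.79 on the log2 scale (SE 0.154, adjusted p = 9.34e-06 in edgeR's test). Of its 40 nearest tested genes 34 were lower, with a median of -0.28, and 3 were as far from 0 as BST2, so that -0.51 remained after subtraction of the median. The part of this neighbourhood in the value was not tested. Without RUNX3 KO replicate 1 or 2 the call of BST2 was lost, at log2 fold changes of -0.71 (adjusted p = 0.0651) and -0.87 (adjusted p = 0.0552 in edgeR's test).

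Interferon-induced GTPases were too low to test. MX1, which traps viral nucleocapsids, had 3 and 1 counts in control and 4 and 10 in RUNX3 KO libraries. GBP1, a guanylate-binding protein strongly induced by interferon gamma, had 5 and 2 counts in control and 16 and 7 in RUNX3 KO. GBP2 had 1 and 1 counts in control and 0 and 1 in RUNX3 KO, and MX2 had none. The RUNX3 KO values of MX1 and GBP1 were above their control values, at counts that do not allow a test here.

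Of the genes for ISG15 conjugation and ubiquitin ligases, TRIM21 alone passed the test. TRIM21, an antibody receptor and ubiquitin ligase of the cytosol, had 96 and 125 counts in control and 134 and 146 in RUNX3 KO libraries. The increase was 0.33 on the log2 scale (SE 0.134, adjusted p = 0.0357). ISG15, the ubiquitin-like modifier, had 4.45 ± 0.900 CPM in control and 5.37 ± 0.286 CPM in RUNX3 KO (SD, n = 2 each) and a log2 fold change of 0.27 (95% confidence interval -0.11 to 0.66, adjusted p = 0.249 in edgeR's test). USP18, which removes ISG15 and dampens receptor signalling, had a log2 fold change of -0.09 (95% confidence interval -0.38 to 0.20) on 114 and 101 against 91 and 113 counts. USP18 lies on chromosome 22 among genes that were lower, with all 30 of its nearest tested genes below 0, a median of -0.51, and every one of them at least as far from 0 as USP18. The call of TRIM21 was lost with DESeq2 (adjusted p = 0.308), without a filter (0.159), with library size alone (0.0507), with upper-quartile scaling (0.0532) and, in edgeR's test, without control replicate 1 (0.474, at a log2 fold change of 0.15), RUNX3 KO replicate 1 (0.241) or RUNX3 KO replicate 2 (0.384). Without control replicate 2 the log2 fold change of TRIM21 was 0.53.

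Both ADP-ribosyltransferase genes rose, beside 24.5% of all tested genes called higher. PARP9, which partners with the ubiquitin ligase DTX3L, had 31 and 50 counts in control and 89 and 93 in RUNX3 KO libraries, or 3.43 ± 1.14 against 7.64 ± 0.138 CPM (SD, n = 2 each). PARP9 thus rose 2.22-fold, 1.15 on the log2 scale (SE 0.192, adjusted p = 2.77e-07). PARP14, a mono-ADP-ribosyltransferase of the same region of chromosome 3, had 304 and 322 counts in control and 433 and 388 in RUNX3 KO, an increase of 0.38 on the log2 scale (SE 0.0810, adjusted p = 4.79e-05). Neither gene's groups overlapped, beside 36.3% of all tested genes without overlap and higher, and the genes around them had a median of 0.06. Without RUNX3 KO replicate 1 the calls of PARP9 (adjusted p = 0.0691) and PARP14 (adjusted p = 0.0776) were lost in edgeR's test, and that of PARP9 also without RUNX3 KO replicate 2 (adjusted p = 0.0851).

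Of the 10 other effectors, 6 were tested, and 4 of these rose, beside 24.5% of all tested genes. IFI44L, a gene widely used in interferon signatures, had 632 and 650 counts in control and 763 and 781 in RUNX3 KO libraries and rose by 0.25 on the log2 scale (SE 0.0575, adjusted p = 1.10e-04). IFI35, which forms a complex with NMI, had 179 and 177 counts in control and 219 and 226 in RUNX3 KO and rose by 0.31 (SE 0.105, adjusted p = 0.0105). SAMD9, an antiviral and growth-restraining factor, had 15 and 15 against 26 and 25 counts and rose by 0.75 (SE 0.318, adjusted p = 0.0440). IFI6, a membrane protein that counters flaviviruses, had 21 and 19 against 34 and 30 counts and rose by 0.66 (SE 0.283, adjusted p = 0.0450). In all 4 genes both RUNX3 KO libraries were above both control libraries, as in 36.3% of all tested genes. The related genes next to a pair of them were not called, SAMD9L at -0.08 (95% confidence interval -0.94 to 0.78) beside SAMD9 and IFI44 at -0.27 (95% confidence interval -0.88 to 0.34) beside IFI44L. IFI6 shares 23.1% of its exon bases with another gene of its strand.

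The other effectors outside the test were near or at 0. IFI27, another widely used signature gene, had 8 and 9 counts in control and 5 and 10 in RUNX3 KO libraries. ISG20, an RNA exonuclease, had 0 and 1 counts in control and 2 and 1 in RUNX3 KO. XAF1, a pro-apoptotic factor, had 1 count, in control replicate 1, and RSAD2 had none. With DESeq2 the calls of SAMD9 (adjusted p = 0.341), IFI6 (0.340) and IFI35 (0.186) were lost, and those of SAMD9 and IFI6 were also lost with each library left out, at adjusted p from 0.114 to 0.156 and from 0.0945 to 0.214 in edgeR's test. SAMD9 and IFI6 were called in 4 of 14 alternatives, and lost the call also with library size alone (0.0508 and 0.0527), upper-quartile scaling (0.0513 and 0.0534), edgeR's exact test (0.0539 and 0.0510), limma-voom (0.0525 and 0.0566) and no filter (0.0675 and 0.0671). The call of IFI35 was lost without RUNX3 KO replicate 1 (0.0755), RUNX3 KO replicate 2 (0.0895) or control replicate 2 (0.0529), and that of IFI44L without RUNX3 KO replicate 2 (adjusted p = 0.0552).

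**Figure D3:**
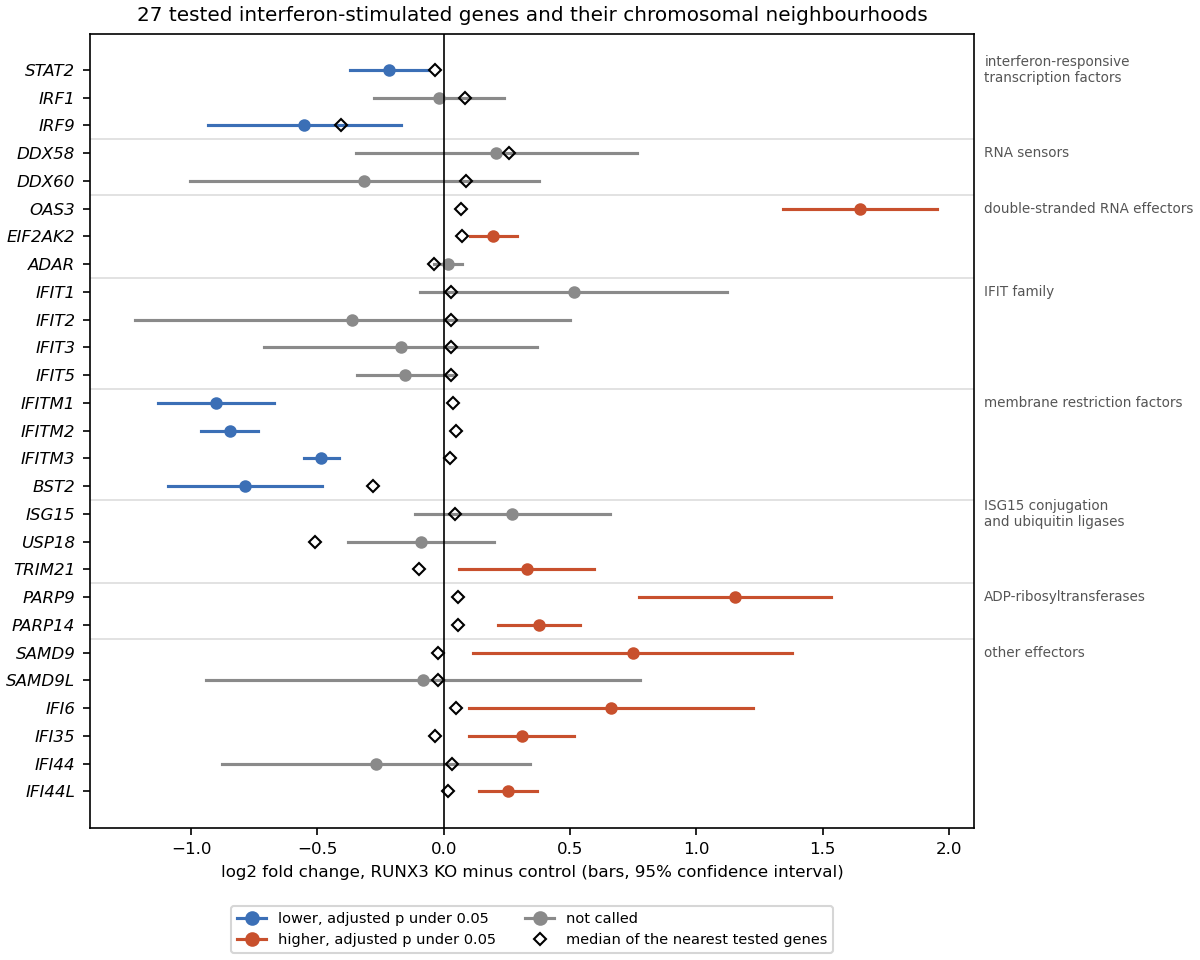
Log2 fold change (RUNX3 KO minus control) of the 27 tested genes grouped by role, with bars for the 95% confidence interval, blue for lower and red for higher at an adjusted p under 0.05 and grey for genes not called; open diamonds are the medians of the nearest tested genes on the chromosome. All 4 membrane restriction factors lie left of 0, whereas the diamonds of IRF9 (-0.40), BST2 (-0.28) and USP18 (-0.51) stand away from 0.

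The pathway upstream and around these genes was read from 97 further genes in 6 lists, of which 55 were tested, 11 lower, 18 higher and 26 not called. That share of 52.7% called stood beside 48.9% of all tested genes, and the number higher was 11 without RUNX3 KO replicate 1 and 9 without RUNX3 KO replicate 2. Interferon ligands were silent, with 21 of 21 genes, among them IFNB1, IFNG and IFNL1 (under its older symbol), at 0 in every library. Receptors were transcribed, and of 6 tested IFNGR1, a chain of the interferon gamma receptor, fell (log2 fold change -0.35) and IL10RB, a chain of the interferon lambda receptor, rose (0.18). The median over the 6 was -0.16. The call of IL10RB was lost with DESeq2 (adjusted p = 0.297), with each library left out (0.0598 to 0.192 in edgeR's test), with library size alone (0.0698), with upper-quartile scaling (0.0709) and without a filter (0.0642).

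Among signal transducers and factors 6 of 9 were tested, with 2 lower and 2 higher, beside 24.4% lower and 24.5% higher of all tested genes. JAK1, the kinase shared by all interferon receptors, rose by 0.14. JAK2, the kinase of the interferon gamma receptor, rose by 0.78, on a stretch of chromosome 9 where 34 neighbours had a median of 0.90. TYK2, the kinase of the type I receptor, fell by 0.43, with 35 of its 40 neighbours lower and a median of -0.30. STAT3 fell by 0.42, in a neighbourhood with a median of 0.0013. The part of the neighbourhoods in the values of JAK2 and TYK2 was not tested, and the call of JAK1 was lost with DESeq2 (adjusted p = 0.205) and with each library left out (0.0567 to 0.140 in edgeR's test).

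Of 10 tested genes for nucleic acid sensing, 1 was lower and 1 was higher, beside 48.9% of all tested genes called in either direction. TLR3, the endosomal receptor for double-stranded RNA, rose by 1.19 on the log2 scale (SE 0.276, adjusted p = 1.76e-04 in edgeR's test) on 15 and 21 against 36 and 47 counts. MYD88, an adaptor of Toll-like receptors, fell by 0.32. Of 8 tested negative regulators 3 were called, again beside 48.9%. PIAS1, an inhibitor of STAT signalling, rose by 0.56, PTPN2, a phosphatase of JAK and STAT proteins, rose by 0.35, and RNASEH2A, a subunit of RNase H2, fell by 0.32. Of the 40 nearest tested genes 33 were lower around RNASEH2A, with a median of -0.19, and 8 were lower around PIAS1, with a median of 0.24, and the part of these neighbourhoods in the values was not tested. Without RUNX3 KO replicate 2 the call of TLR3 was lost (adjusted p = 0.0955 in edgeR's test), and those of PTPN2 and MYD88 without it or RUNX3 KO replicate 1 (0.0509 and 0.0601 for PTPN2, 0.0978 and 0.0699 for MYD88). The call of RNASEH2A was lost without RUNX3 KO replicate 1 (0.0562), and that of MYD88 also with DESeq2 (adjusted p = 0.173).

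A list of 38 other interferon-stimulated genes gave 25 tested, 6 lower and 12 higher, beside 24.4% lower and 24.5% higher of all tested genes, so that the number lower was close to the background. CMPK2, a mitochondrial nucleotide kinase whose gene adjoins RSAD2, had 39 and 35 counts in control and 7 and 8 in RUNX3 KO libraries and fell by 2.30 on the log2 scale (SE 0.344, adjusted p = 1.76e-08). SP100, a scaffold of nuclear bodies, had 199 and 231 against 109 and 106 counts and fell by 1.01. APOL6, of the apolipoprotein L family, had 13 and 17 against 2 and 3 counts, a log2 fold change of -2.54 (95% confidence interval -3.63 to -1.45), in a neighbourhood of chromosome 22 where 40 of 40 genes were lower with a median of -0.49. DTX3L, the partner of PARP9, had 115 and 133 counts in control and 208 and 230 in RUNX3 KO and rose by 0.81 (SE 0.116, adjusted p = 5.08e-09). HERC6, a ubiquitin ligase of the HERC family, rose by 0.86, and UBA7, the activating enzyme for ISG15, by 0.90 on 9 and 10 against 15 and 21 counts. UBA7 was called in 3 of 13 alternatives, and lost the call with DESeq2 (adjusted p = 0.354), each library left out (0.0733 to 0.319), library size alone (0.0528), upper-quartile scaling (0.0532), the exact test (0.0614), limma-voom (0.0542) and no filter (0.0935). The call of APOL6 was lost without RUNX3 KO replicate 1 (adjusted p = 0.0556) or RUNX3 KO replicate 2 (adjusted p = 0.0525 in edgeR's test).

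**Figure D4:**
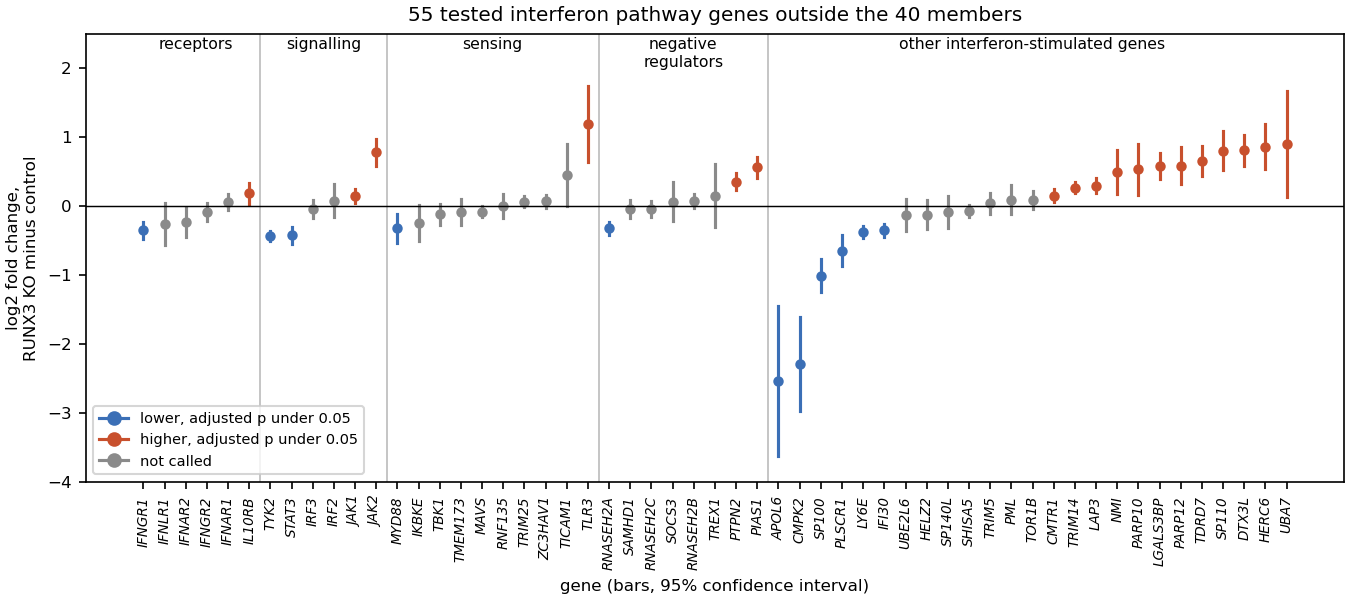
Log2 fold change (RUNX3 KO minus control) with 95% confidence intervals of the 55 tested genes of the interferon pathway outside the 40, ordered within receptors, signalling, sensing, negative regulators and other interferon-stimulated genes, coloured by the test as lower (blue), higher (red) or not called (grey). The last list spans from APOL6 at -2.54 to UBA7 at 0.90, and every list holds genes of both directions.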

How the data were processed

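Poly(A) RNA from 2 control and 2 RUNX3 KO samples of HGC27 was sequenced. The authors deposited raw read counts per gene symbol for each library, without normalization. Per the labels the builds and tools were hg19, HISAT2 2.1.0, HTSeq and bcl2fastq, with MEM, phenol-based extraction and a stranded kit, whereas the methods name STAR, featureCounts with GENCODE, RPMI and a column kit. The strand setting and annotation version are not given in the sources used here. The 5 rows without a gene took 25.9% to 28.1% of counts and were left out.

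edgeR 4.0.16 in R 4.3.3 was run on the counts (filterByExpr, minimum count 10 and total 15, TMM, quasi-likelihood test, prior count 0.125) over 12967 genes, with Benjamini-Hochberg adjustment over all of them. The common dispersion was 0.000211. The SE is the log2 fold change over the square root of F. CPM used TMM library sizes, and RPKM the canonical transcript. Alternatives were DESeq2 1.42.0, limma-voom (limma 3.58.1), edgeR's exact test, other scalings, filters and prior counts, a replicate block, leaving out each library, and subtracting the median of up to 20 tested genes on each side. GENCODE positions on GRCh37 were found for 21709 of 25559 symbols. Called means an adjusted p under 0.05.

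All 40 members were accounted for, each tested one was named, counts were given for called members and for untested ones with at least 1 count, and up to 3 called genes per direction were named from each other list. Promoter letters were searched in every member with an entry, and sequences were printed only for called members. A pair of genes of the pathway lists is not reported here and was left out of their counts. The members and lists were chosen with earlier results of these data known. On simulated counts for this comparison (12801 genes tested) 56 of 67 genes changed by 1.5-fold, 65 of 65 by 2-fold and 67 of 68 by 3-fold were recovered, with 5 false calls. Genes with few counts, such as SAMD9, were not drawn for change in the simulation, and every gene was given the common dispersion. These rates therefore check the method and are not error rates of the calls above. An exact permutation test of 2 against 2 libraries cannot go below p = 0.333. Intervals for counts of 0 cover counting error only.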

Additional observations from a re-analysis of the deposited data

How the results depend on the processing

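Of the 15 called interferon-stimulated genes, 9 kept the call in all 10 alternatives that keep every library, and 4 of these (OAS3, IFITM1, IFITM2 and IFITM3) also with each library left out; all 15 kept their direction throughout. DESeq2 left 4 members lower in place of 6 and 5 higher in place of 9. It left 12 other pathway genes higher in place of 18, with 28.5% of all tested genes called in place of 48.9%. Without a filter on low counts 4 members were lower and 6 higher. Leaving out each library gave 3 to 6 members lower and 2 to 7 higher, 2 to 3 higher by 2-fold, 8 to 11 pathway genes lower and 9 to 14 higher, and a median log2 fold change of the tested members of 0.05 to 0.08. Among members not called, leaving out a library gave -0.80 to 0.12 for IFI44, -0.63 to 0.08 for DDX60, 0.08 to 0.49 for ISG15, -0.24 to 0.05 for USP18, -0.27 to 0.14 for SAMD9L and -0.14 to 0.10 for IRF1, all but ISG15 on both sides of 0. The rest kept their sign, with 0.33 to 0.68 for IFIT1, -0.54 to -0.20 for IFIT2, -0.22 to -0.12 for IFIT3, -0.22 to -0.09 for IFIT5, 0.09 to 0.33 for DDX58 and 0.0039 to 0.030 for ADAR. PARP9 fell below 2-fold without control replicate 1 (0.85). That fit tested 28 members, and its count by 2-fold took in a member outside the 27 tested with all libraries. These fits assume that a lone library varies like the others, and called 22.8% and 20.1% of all genes without RUNX3 KO replicate 1 and 2. RUNX3 itself ranged from -0.86 to -0.55 and missed the threshold without RUNX3 KO replicate 2 (adjusted p = 0.0649 in edgeR's test). No pairing of same-numbered libraries is named in the sources used here, and their deviations had a correlation of -0.00703 over 10869 genes. Spread within groups was near counting noise (chi-square per degree of freedom 1.23 in control and 1.19 in RUNX3 KO), so this value cannot decide whether a small batch was shared. A replicate block changed no count, with 6 members lower, 9 higher, 11 and 18 pathway genes and RUNX3 at -0.70. With library size alone or upper-quartile scaling 6 members were lower and 6 higher (TRIM21, SAMD9 and IFI6 were lost), with 13 and 16 pathway genes, and with edgeR's exact test or limma-voom 6 were lower and 7 higher (SAMD9 and IFI6 were lost). Other scalings shifted the median of all genes by at most 0.0207 on the log2 scale, and the ADAR log2 fold change, not called, went to -0.0044 with library size alone and -0.0052 with upper-quartile scaling. Subtracting the neighbourhood median left IRF9 at -0.15, EIF2AK2 at 0.12 and BST2 at -0.51 and moved USP18 to 0.42; the cause of these shifts was not tested. Fold changes of genes with few counts, such as IFIT2, SAMD9L and DDX60, are limited by depth.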
